A study of Homo sapiens with 18 samples.

Results

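The EGF-family ligands and ERBB receptors described here are 9 genes: the ligands TGFA, AREG, EREG, HBEGF and NRG1, the receptor tyrosine kinases EGFR, ERBB2 and ERBB3, and the receptor inhibitor ERRFI1. They were taken by symbol from the DU145 table and by Ensembl identifier from the tables of C4-2B and 22Rv1. All 9 were among the 37256 genes of DU145. Of the 9, 7 were among the 22360 genes of C4-2B and the same 7 among the 25716 genes of 22Rv1, because EREG and NRG1 had no entry in those tables and were not tested there. After a filter on low counts, 6 members were tested in C4-2B, where AREG was too low, 7 in 22Rv1 and 9 in DU145.

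The libraries are total RNA from 3 established human prostate cancer lines in 6 groups of 3: C4-2B, a castration-resistant derivative of LNCaP, 22Rv1, from a relapsed xenograft, and DU145, from a brain metastasis. Knockdown cells received siRNA against EMD, which encodes the inner nuclear membrane protein emerin, and control cells a scrambled siRNA, both carried by a lipid reagent. The transfection mix was taken off after 24 hours and the time of harvest is not given. DU145 was cultured in DMEM, the other 2 lines in RPMI-1640. The names of the DU145 knockdown libraries contain "shEMD", which does not match the siRNA protocol, and the labels do not settle which reagent was used. The labels speak of triplicates without saying that these were separate cultures, so the p-values below measure only the spread between these libraries. Each line has a single batch label and a table of its own, so a difference between lines cannot be told apart from one between batches or tables.

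EGF-family ligands are made as membrane-anchored precursors that metalloproteases such as ADAM17 and ADAM10 release. TGF-alpha, amphiregulin, epiregulin and HB-EGF bind EGFR, HB-EGF and epiregulin also bind ERBB4, and neuregulin-1 binds ERBB3 and ERBB4. Ligand binding pairs the receptors into dimers, in which ERBB2, which has no known ligand, is the preferred partner and ERBB3, whose kinase is weak, passes the signal to PI3K. The signal runs through RAS and ERK and through PI3K and AKT. ERRFI1, also called MIG6, is induced by this signal and blocks the receptor kinases, and several of the ligands are known as autocrine growth factors of prostate cancer cells.

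Depth was 14722733 to 25112148 reads per C4-2B library, 15602874 to 30788078 per 22Rv1 library and 21024352 to 43311727 per DU145 library. Levels are CPM, counts scaled to a common library size by the trimmed mean of M values, given as mean ± SD of 3 libraries. EMD was lower in all 9 knockdown libraries than in the controls of the same line, by 3.07 ± 0.11 on the log2 scale in C4-2B, 1.73 ± 0.073 in 22Rv1 and 3.21 ± 0.077 in DU145. The 8 luminal prostate markers, with KLK2 and KLK3 among them, summed to 5013 to 5085 CPM in the C4-2B controls, 2058 to 2167 CPM in those of 22Rv1 and 95.1 to 104 CPM in those of DU145. In DU145 the mesenchymal-like list, led by VIM, summed to 3560 to 3728 CPM.

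Promoter sequence is shown for TGFA, AREG, EREG and HBEGF, 4 of the ligands that rose or fell in DU145, because they went in different directions there. TGFA lies at chr2:70447284-70553826 on the minus strand, and AREG at chr4:74445136-74455005 and EREG at chr4:74365145-74388749 on the plus strand (GRCh38.p14). HBEGF lies at chr5:140332843-140346603 on the minus strand. AREG and EREG are neighbours in the ligand cluster of chromosome 4, with 56.4 kb between the end of EREG and the start of AREG, and EPGN and BTC on either side. Each line gives the 250 bases before the gene's outermost start in the RefSeq promoter table, 5′ to 3′ on the gene's strand, with any match to a TATA box (TATAAA), a cAMP response element (TGACGTCA), a GC box (GGGCGG) or an AP-1 site (TGANTCA) in capitals. Both strands were searched, and capitals run on where 2 GC boxes of HBEGF overlap. The windows are chr2:70553827-70554076 for TGFA, chr4:74444886-74445135 for AREG, chr4:74364895-74365144 for EREG and chr5:140346604-140346853 for HBEGF.
TGFA: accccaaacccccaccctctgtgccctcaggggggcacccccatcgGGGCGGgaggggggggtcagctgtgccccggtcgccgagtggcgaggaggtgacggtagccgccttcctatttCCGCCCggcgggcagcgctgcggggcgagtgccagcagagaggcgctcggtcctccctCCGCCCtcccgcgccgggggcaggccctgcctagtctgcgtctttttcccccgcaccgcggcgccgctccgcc
AREG: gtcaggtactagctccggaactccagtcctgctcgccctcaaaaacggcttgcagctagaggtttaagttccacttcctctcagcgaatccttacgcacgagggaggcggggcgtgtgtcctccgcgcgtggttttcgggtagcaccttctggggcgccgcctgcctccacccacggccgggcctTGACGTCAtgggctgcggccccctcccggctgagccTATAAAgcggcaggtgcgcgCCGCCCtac
EREG: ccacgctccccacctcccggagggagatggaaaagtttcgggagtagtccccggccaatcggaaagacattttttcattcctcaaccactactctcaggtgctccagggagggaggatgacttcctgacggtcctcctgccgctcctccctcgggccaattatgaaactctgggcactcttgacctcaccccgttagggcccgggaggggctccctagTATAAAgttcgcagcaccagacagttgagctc
HBEGF: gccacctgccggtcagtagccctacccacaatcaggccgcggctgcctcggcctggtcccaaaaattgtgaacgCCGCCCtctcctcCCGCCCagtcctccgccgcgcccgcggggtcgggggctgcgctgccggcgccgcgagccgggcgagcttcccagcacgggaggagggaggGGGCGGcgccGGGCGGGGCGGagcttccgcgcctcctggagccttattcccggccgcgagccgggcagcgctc

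AREG and EREG, the neighbours, each held a TATA box, starting 29 and 32 bases before the start, and TGFA and HBEGF held none. AREG also held the 1 cAMP response element of the 4 windows, 65 bases before its start, and a GC box at 9 bases. TGFA held 3 GC boxes and HBEGF 5. No AP-1 letters were found in these 4 windows. Over the 35116 promoters of the table, TATAAA was in 10.7%, TGACGTCA in 1.65%, GGGCGG in 42.6% and TGANTCA in 6.57% of windows of this length. These matches are letters in a window and were not tested as binding sites.

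TGFA, which encodes TGF-alpha, fell in 22Rv1 and DU145, and in DU145 its fall was the largest among the members. In DU145 the control libraries read 69.1, 73.3 and 69.0 CPM and the knockdown libraries 5.63, 6.10 and 5.21 CPM. The arms did not overlap, and the fall was 3.65 ± 0.069 on the log2 scale, or 12.5-fold (adjusted p = 8.52e-25, edgeR's quasi-likelihood test with Benjamini-Hochberg adjustment, as for every adjusted p below). It ranked 46 among the falls of 19377 genes tested, ahead of EMD itself at 71. In bulk RNA, a lower level per cell and fewer cells with the transcript cannot be told apart. In 22Rv1 the controls read 6.84, 6.44 and 6.46 CPM and the knockdown libraries 1.46, 1.28 and 1.18 CPM, from 103 to 205 reads down to 20 to 36. That fall of 2.31 ± 0.19, or 4.97-fold, also left the arms apart (adjusted p = 1.56e-09). In C4-2B, where the gene is low, the controls read 2.38, 1.99 and 2.26 CPM and the knockdown libraries 3.30, 2.63 and 3.04 CPM. All knockdown libraries lay above all controls there, but the difference of 0.43 ± 0.28 did not pass the test (adjusted p = 0.221). The fit that pools all 18 libraries gave the same difference with an adjusted p of 0.0345.

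**Figure D1:**
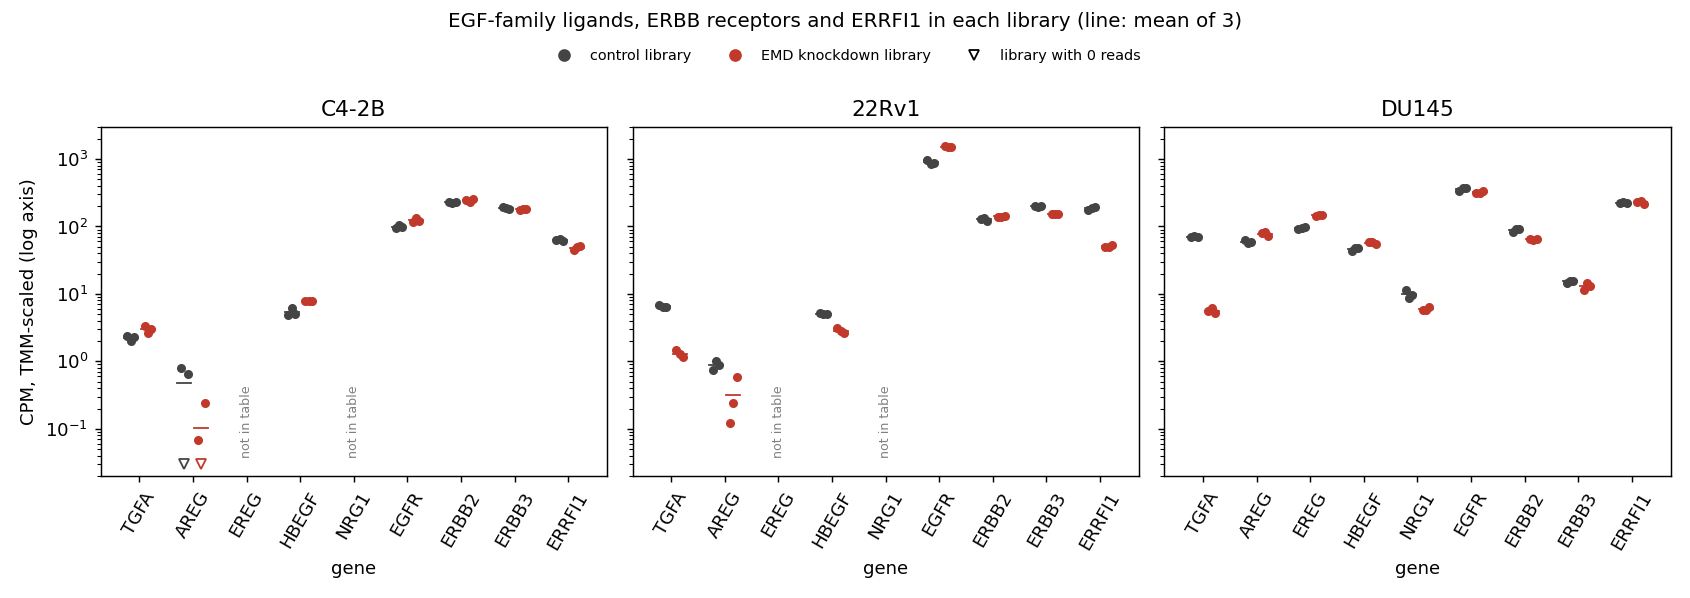
CPM (log axis) of each of the 9 genes in each control (grey) and EMD knockdown (red) library of C4-2B, 22Rv1 and DU145, with a line at the mean of 3 and a triangle for 0 reads. TGFA in DU145 shows the widest gap, from a mean of 70.4 CPM in the controls to 5.64 CPM after knockdown, while ERRFI1 in DU145 sits at 225 and 227 CPM.

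AREG, which encodes amphiregulin, rose in DU145 and fell in 22Rv1. The DU145 controls read 63.0, 56.8 and 58.3 CPM and the knockdown libraries 79.3, 82.7 and 73.1 CPM, with the arms apart. The rise was 0.40 ± 0.055 on the log2 scale (adjusted p = 5.81e-07). In 22Rv1 the gene rested on 22, 16 and 28 reads in the controls and 3, 4 and 10 reads after knockdown, or 0.878 ± 0.123 and 0.318 ± 0.242 CPM. The fall of 1.51 ± 0.52 passed (adjusted p = 0.0146), but not without control 2 (adjusted p = 0.0573), knockdown 1 (0.101) or knockdown 2 (0.0624), nor with DESeq2 (0.0680) or after cyclic loess scaling (0.103). Without knockdown library 3 it was 2.29 on the log2 scale (a fall, adjusted p = 0.00321). In C4-2B there were 12, 0 and 16 reads in the controls and 1, 0 and 4 after knockdown, and the gene was not tested; the control library with 0 reads allows a level of up to 0.157 CPM, counting error only.

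EREG, which encodes epiregulin, rose in DU145 from 92.0, 93.9 and 96.7 CPM in the controls to 143, 150 and 149 CPM after knockdown. The arms were well apart, and the rise was 0.64 ± 0.047 on the log2 scale, or 1.56-fold (adjusted p = 4.99e-12). EREG was thus higher after knockdown together with its neighbour AREG, while the flanking BTC rose by 0.64 ± 0.11 and EPGN did not pass the test. HBEGF, which encodes HB-EGF, read 44.0, 47.5 and 47.3 CPM in the DU145 controls and 59.1, 58.4 and 54.1 CPM after knockdown, a rise of 0.30 ± 0.054 (adjusted p = 3.14e-05).

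HBEGF rose in C4-2B too, from 4.90, 6.18 and 5.01 CPM to 7.75, 7.83 and 7.96 CPM, by 0.55 ± 0.17 (adjusted p = 0.0113). In 22Rv1 it went the other way, from 5.13, 5.12 and 5.08 CPM to 3.12, 2.81 and 2.65 CPM. The fall of 0.83 ± 0.18 (adjusted p = 3.16e-04) was 0.51 after cyclic loess scaling, still a fall (adjusted p = 0.0159). In none of these 3 comparisons did the arms overlap. NRG1, which encodes neuregulin-1, read 11.5, 8.79 and 9.52 CPM in the DU145 controls and 5.88, 5.75 and 6.44 CPM after knockdown. NRG1 fell by 0.70 ± 0.10 on the log2 scale, with the arms apart (adjusted p = 2.07e-06).

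In 22Rv1 the fold change of all genes moved with their level, which touches the low ligands and the higher receptors there. The median log2 fold change of genes between 0.5 and 2 CPM was -0.44 and that between 2 and 10 CPM -0.33, against 0.13 between 30 and 100 CPM and 0.15 above 100 CPM. TGFA, at 6.58 CPM in the controls, fell by more than its level's median, whereas HBEGF at 5.11 CPM and AREG at 0.878 CPM lay closer to theirs. The part of this shift in their falls was not tested beyond the loess scaling given above. In DU145 the medians over the same levels lay between -0.0013 and 0.026. In C4-2B a smaller shift ran the other way, at 0.19 between 0.5 and 2 CPM, 0.13 between 2 and 10 CPM and -0.034 above 100 CPM. After cyclic loess scaling HBEGF in C4-2B was 0.47 and still passed, and TGFA was 0.29 and did not. The part of these shifts in the C4-2B values and in differences between lines was not tested beyond loess scaling.

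Among the receptors, EGFR (chr7:55019017-55211628, plus strand) rose in 22Rv1 and C4-2B and fell slightly in DU145. The 22Rv1 controls read 970, 843 and 866 CPM and the knockdown libraries 1538, 1509 and 1521 CPM, so that every knockdown library was far above every control. The rise was 0.77 ± 0.043 on the log2 scale, or 1.70-fold (adjusted p = 8.88e-10). In C4-2B the controls read 93.8, 105 and 98.3 CPM and the knockdown libraries 116, 131 and 122 CPM, a rise of 0.31 ± 0.053 (adjusted p = 3.65e-05). In DU145 they read 336, 371 and 366 CPM against 317, 313 and 333 CPM. The arms did not overlap there and the fall was 0.16 ± 0.050 (adjusted p = 0.0103). That call was lost when control 2 or 3 (adjusted p = 0.0820 and 0.154) or knockdown 1 or 2 (0.143 and 0.125) was left out, and with library totals in place of scaling factors (0.0678).

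ERBB2, the shared dimer partner (chr17:39688094-39728658, plus strand), fell in DU145, from 82.0, 90.2 and 90.5 CPM in the controls to 64.4, 64.1 and 64.3 CPM after knockdown. The 3 knockdown libraries were nearly equal and below all controls, and the fall was 0.45 ± 0.051 (adjusted p = 2.28e-08). In 22Rv1 the levels were 130, 132 and 120 CPM and then 140, 139 and 142 CPM, a rise of 0.14 ± 0.043 (adjusted p = 0.00555). That rise was no larger than the median of 0.16 over the 500 genes nearest to ERBB2 in level there. It was not called with library totals (0.06, adjusted p = 0.184), after cyclic loess scaling (adjusted p = 0.899) or in the fit of all 18 libraries (0.099, adjusted p = 0.0638). In C4-2B the 234, 224 and 233 CPM of the controls overlapped the 245, 231 and 255 CPM after knockdown, and the difference of 0.080 ± 0.042 did not pass (adjusted p = 0.127). It passed with library totals (0.13, adjusted p = 0.0111), after loess scaling (0.12, adjusted p = 0.0178) and without knockdown 2 (0.11, adjusted p = 0.0406). ERBB2 shares 571 exon bases with MIEN1 and 194 with PGAP3 on the opposite strand, and the strandedness of the kit is not given in the sources used here, so reads of these stretches cannot be told apart. MIEN1 rose by 0.22 in C4-2B and 0.26 in 22Rv1, and stood at 15.2 and 16.8 CPM in the arms of DU145.

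ERBB3, the receptor that couples to PI3K (chr12:56080108-56103505, plus strand), fell in 22Rv1 from 199.5, 194 and 204 CPM to 154 CPM in each of the 3 knockdown libraries. The fall of 0.37 ± 0.037 was far larger than the spread (adjusted p = 2.35e-08). In DU145, where the gene is low, the controls read 14.5, 15.6 and 15.8 CPM and the knockdown libraries 11.4, 14.4 and 12.9 CPM. The lowest control and the highest knockdown library were almost equal, and the fall of 0.26 ± 0.081 (adjusted p = 0.00994) was lost without control 3 (0.0976) or knockdown 1 (0.210) and with DESeq2 (0.0844). ERBB3 shares 31 exon bases with AC034102.2 on the same strand, which in DU145 was at 26.4 CPM in the controls and 49.5 CPM after knockdown. In C4-2B the controls read 193, 189 and 182 CPM and the knockdown libraries 178, 182 and 181 CPM. These overlapped and the difference of -0.057 ± 0.040 did not pass (adjusted p = 0.272).

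ERRFI1, the feedback inhibitor (chr1:8011727-8026309, minus strand), fell in 22Rv1 and C4-2B and did not pass the test in DU145. In 22Rv1 the controls read 178, 187 and 192 CPM and the knockdown libraries 49.1, 49.7 and 52.7 CPM. All 3 knockdown libraries lay far below the lowest control, and the fall was 1.88 ± 0.047 on the log2 scale, or 3.68-fold (adjusted p = 1.43e-17). In C4-2B it fell from 64.0, 64.1 and 60.3 CPM to 45.2, 49.0 and 51.0 CPM, by 0.37 ± 0.063 with the arms apart (adjusted p = 2.75e-05). In DU145 the controls read 224, 230 and 220 CPM and the knockdown libraries 228, 235 and 219 CPM. The arms overlapped fully and the difference was 0.013 ± 0.047 (adjusted p = 0.859).

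**Figure D2:**
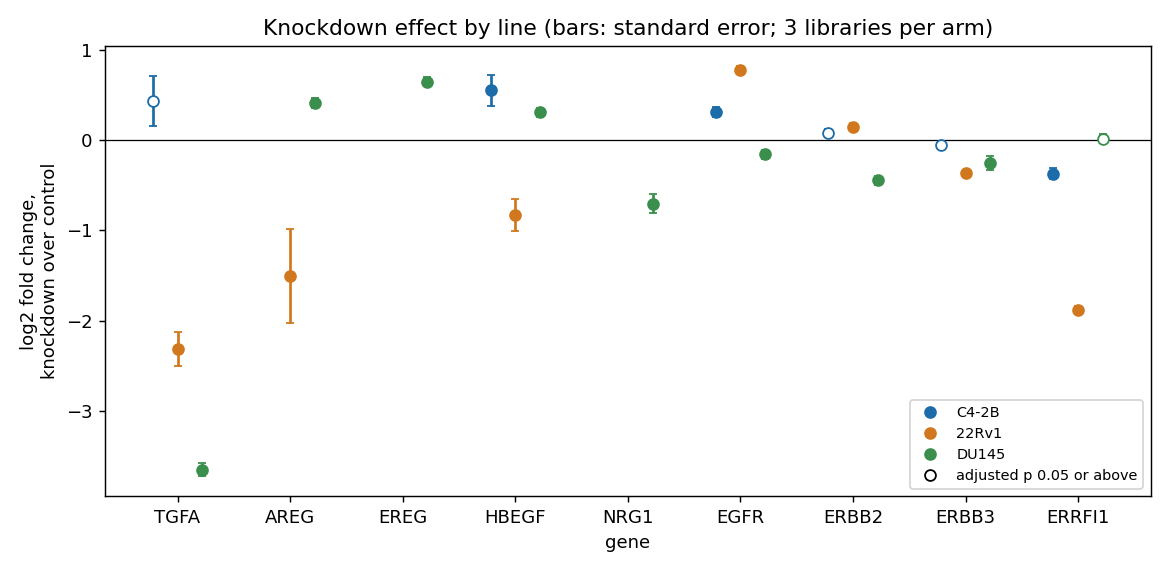
Log2 fold change of EMD knockdown over control for each gene tested in C4-2B (blue), 22Rv1 (orange) and DU145 (green), with the standard error as bars and open points where the adjusted p is 0.05 or above. TGFA stands at -2.31 in 22Rv1 and -3.65 in DU145 and ERRFI1 at -1.88 in 22Rv1, while the receptors lie between -0.45 and 0.77.

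Counted over the members, 3 of 6 tested passed the threshold of 0.05 in C4-2B (2 higher, 1 lower), against 41.7% of all genes tested there, 19.4% of them higher and 22.3% lower. In 22Rv1 all 7 tested members passed, 2 higher and 5 lower, against 67.8% of all genes, 33.5% of them higher and 34.3% lower. In DU145, 8 of 9 passed, 3 higher and 5 lower, against 47.6% of all genes, 24.1% higher and 23.6% lower. Arms that did not overlap were found for 4 of 6 members in C4-2B, 7 of 7 in 22Rv1 and 8 of 9 in DU145, against 50.5%, 71% and 54.8% of all genes. With so many genes called in each line, a call by itself does not set these members apart. With library totals in place of scaling factors, 57.0% instead of 46.6% of the called C4-2B genes were higher, and of the members 3 were higher and 1 lower. The median log2 fold change of the members tested was 0.20 in C4-2B, -0.83 in 22Rv1 and -0.16 in DU145, beside 0.013, -0.0038 and 0.012 over all genes tested. The 22Rv1 median is the value of HBEGF, a low gene, and the 500 genes nearest to HBEGF in level had a median of -0.42 there. The part of that line's shift with level in the member median was not tested. In the fit of all 18 libraries, which leaves out EREG and NRG1, 5 DU145 members passed.

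The knockdown effects were then compared between lines in a fit of all 18 libraries on 17152 genes present in the 3 tables. The TGFA effect differed in each pair of lines: by 2.79 ± 0.22 on the log2 scale between C4-2B and 22Rv1 (adjusted p = 1.03e-12), by 4.06 ± 0.19 between C4-2B and DU145 (adjusted p = 1.33e-18) and by 1.27 ± 0.19 between 22Rv1 and DU145 (adjusted p = 9.04e-07), the first line of each pair having the higher effect. TGFA thus fell most in DU145, where its control level was highest. The EMD effect itself was smaller in 22Rv1 than in C4-2B by 1.29 ± 0.14 and than in DU145 by 1.42 ± 0.14 (adjusted p = 9.78e-09 and 9.39e-10), and its part in the differences below was not tested.

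HBEGF differed by 1.42 ± 0.17 between C4-2B and 22Rv1 (adjusted p = 1.09e-08) and by -1.19 ± 0.14 between 22Rv1 and DU145 (adjusted p = 1.13e-08), since it fell only in 22Rv1 of the 3 lines tested. Between C4-2B and DU145 its effects differed by 0.23 ± 0.13, which did not pass (adjusted p = 0.150). It passed without C4-2B control 2 (0.33, adjusted p = 0.0482). The AREG effect was lower in 22Rv1 than in DU145 by 2.00 ± 0.58 (adjusted p = 0.00713). For C4-2B, where AREG failed the filter on its own at 0 to 16 reads per library, the joint fit gave -2.58 ± 0.93 against DU145 (adjusted p = 0.0310), a value in which no difference between these lines is read. It no longer passed without C4-2B control 1 or 3 or knockdown 1 or 2 (adjusted p = 0.0925, 0.143, 0.0849 and 0.102), and neither passed after loess scaling (0.105 for 22Rv1 and 0.282 for C4-2B). Without C4-2B knockdown 3 the C4-2B value was -4.16 (adjusted p = 0.0161).

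The EGFR effect was higher in 22Rv1 than in C4-2B by 0.41 ± 0.087 (a difference of -0.41 for C4-2B over 22Rv1, adjusted p = 4.02e-04) and than in DU145 by 0.86 ± 0.082 (adjusted p = 1.08e-08). It was higher in C4-2B than in DU145 by 0.45 ± 0.087 (adjusted p = 1.89e-04). The first of these was -0.24 after loess scaling and no longer passed (adjusted p = 0.0867). ERBB2 in DU145 lay below both other lines, by 0.52 ± 0.065 against C4-2B (adjusted p = 4.54e-08) and 0.53 ± 0.066 against 22Rv1 (adjusted p = 2.21e-08), while C4-2B and 22Rv1 differed by -0.016 ± 0.064 (adjusted p = 0.847). The ERBB3 effect differed by 0.36 ± 0.064 between C4-2B and 22Rv1 (adjusted p = 1.44e-05). Between C4-2B and DU145 it differed by 0.19 ± 0.079 at an adjusted p of 0.0472, a call lost in 9 of the 12 fits that leave out a library of these lines, with no filter on low counts (adjusted p = 0.0765) and with these 2 lines fitted alone (adjusted p = 0.0847).

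The ERRFI1 effect was lower in 22Rv1 than in C4-2B by 1.56 ± 0.070 (adjusted p = 5.90e-19) and than in DU145 by 1.96 ± 0.064 (adjusted p = 1.39e-22). It was lower in C4-2B than in DU145 by 0.40 ± 0.067 (adjusted p = 6.48e-06). Of the 7 members in this fit, 5 differed between C4-2B and 22Rv1, 6 between C4-2B and DU145 (with AREG counted) and 6 between 22Rv1 and DU145, against 56.1%, 45.7% and 55.6% of the genes tested.

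The levels in the scrambled siRNA controls show how unlike the libraries of the lines were, and line cannot be told apart from batch or table. Relative to C4-2B, DU145 held 34.9 times as much TGFA, 135 times as much AREG (from 12, 0 and 16 reads in C4-2B) and 9.45 times as much HBEGF; relative to 22Rv1 the ratios were 11.5, 74.1 and 9.79. On the log2 scale these differences were -5.12 ± 0.10, -7.08 ± 0.23 and -3.24 ± 0.087 for C4-2B over DU145, and -3.53 ± 0.085, -6.21 ± 0.20 and -3.29 ± 0.084 for 22Rv1 over DU145 (all with adjusted p of 2.82e-15 or below). TGFA was 3.02 times as high in 22Rv1 as in C4-2B (adjusted p = 3.70e-13), whereas HBEGF (0.052 ± 0.11, adjusted p = 0.680) and AREG (-0.87 ± 0.51, adjusted p = 0.129) did not pass between those lines. AREG passed there with DESeq2 (adjusted p = 0.0157), and its difference between C4-2B and DU145 ran from -8.09 to -6.52 over the alternatives. Of these 3 ligands, each was highest in DU145. EREG and NRG1 could not be compared.

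The receptors were ordered otherwise. EGFR was highest in 22Rv1, 2.31 times its level in DU145 and 9.11 times that in C4-2B (adjusted p = 2.44e-14 and 4.04e-21). ERBB2 was highest in C4-2B, 1.79 times as high in C4-2B as in 22Rv1 and 1.34 times as high in 22Rv1 as in DU145 (adjusted p = 9.39e-18 and 4.48e-10). ERBB3 was 11.1 times as high in C4-2B and 11.9 times as high in 22Rv1 as in DU145 (adjusted p = 3.37e-33 and 1.45e-33). Between C4-2B and 22Rv1 the ERBB3 level differed by only -0.10 ± 0.045, and that call (adjusted p = 0.0394) was lost with DESeq2's size factors (0.0822) and without C4-2B control 2 or 3 (0.0644 and 0.165) or 22Rv1 control 1 or 3 (0.0776 and 0.152). ERRFI1 was 3.93 times as high in DU145 as in C4-2B and 1.31 times as high as in 22Rv1 (adjusted p = 2.98e-28 and 3.96e-10); with library totals the second difference was -0.21 for 22Rv1 over DU145 (adjusted p = 1.75e-05). In control levels 5, 7 and 7 of the 7 members differed (C4-2B with 22Rv1, C4-2B with DU145, 22Rv1 with DU145), against 78.4%, 83.1% and 83.8% of the genes tested.

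To set the members beside each other, control CPM was divided by the length of the principal transcript in kb. In C4-2B the order was ERBB2 at 50.7 ± 1.18, ERBB3 at 31.7 ± 0.93, ERRFI1 at 20.2 ± 0.695, EGFR at 10.1 ± 0.585 and HBEGF at 2.25 ± 0.298 CPM per kb, with TGFA (0.513 ± 0.0465) and AREG (0.387 ± 0.341) last and overlapping. In 22Rv1 EGFR led at 90.9 ± 6.87 CPM per kb, ahead of ERRFI1 at 59.8 ± 2.25, ERBB3 at 33.6 ± 0.849 and ERBB2 at 28.0 ± 1.40. The ligands of 22Rv1 again came last, HBEGF at 2.14 ± 0.0131, TGFA at 1.53 ± 0.0531 and AREG at 0.708 ± 0.0995 CPM per kb.

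In DU145 a ligand stood above every receptor: ERRFI1 was at 72.5 ± 1.68, AREG at 47.9 ± 2.58 and EGFR at 36.4 ± 1.92 CPM per kb. EREG (20.4 ± 0.510), HBEGF (19.4 ± 0.834) and ERBB2 (19.3 ± 1.06) followed, and of these the libraries of HBEGF and ERBB2 overlapped while those of EREG and HBEGF met at 19.9 CPM per kb. TGFA stood at 16.3 ± 0.567, NRG1 at 4.89 ± 0.698 and ERBB3 last at 2.59 ± 0.121. Dividing by all merged exon bases kept the order in C4-2B and 22Rv1 and exchanged TGFA with ERBB2 and NRG1 with ERBB3 in DU145.

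**Figure D3:**
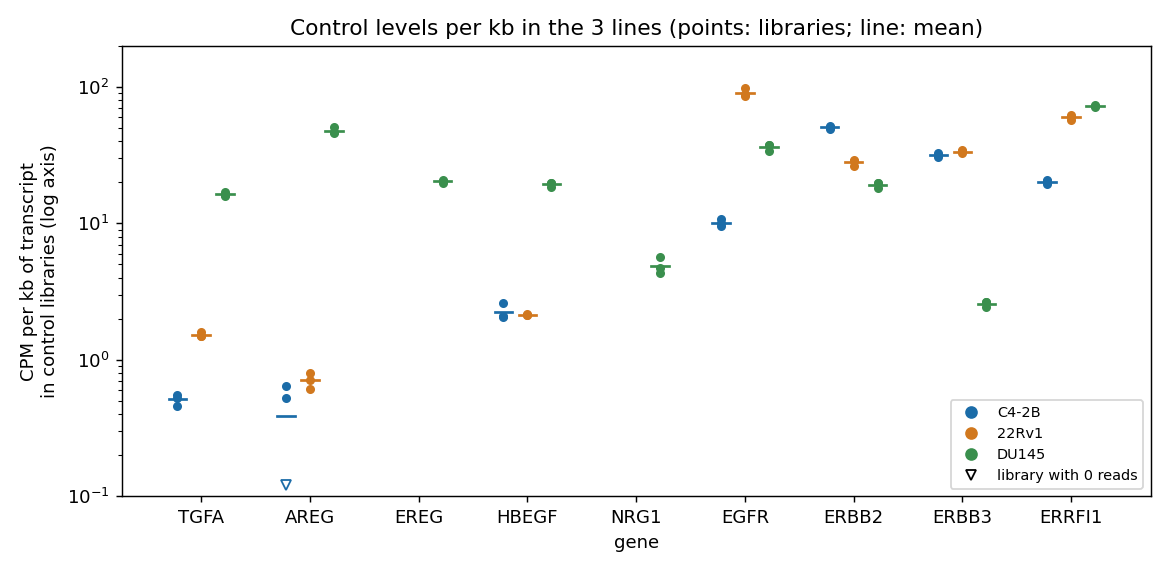
Control level of each gene in CPM per kb of principal transcript (log axis) in C4-2B (blue), 22Rv1 (orange) and DU145 (green), points being libraries and lines means of 3. AREG stands at 47.9 in DU145 and below 1 in both other lines, and ERBB3 at 2.59 in DU145 against 31.7 and 33.6.

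The other genes of the pathway were followed in 8 lists of 106 genes in all. In C4-2B 22 of 91 tested rose and 25 fell (30 and 18 with library totals), in 22Rv1 23 of 101 rose and 53 fell, and in DU145 31 of 104 rose and 41 fell. In all, 51.6%, 75.2% and 69.2% of the list genes tested were called, beside 41.7%, 67.8% and 47.6% of all genes. The same shares of all genes are to be read beside each list below. By direction they were 19.4% higher and 22.3% lower in C4-2B, 33.5% and 34.3% in 22Rv1, and 24.1% and 23.6% in DU145. The share called in the single lists ran from 30.8% to 70.0% in C4-2B, 58.8% to 91.7% in 22Rv1 and 38.5% to 100% in DU145. The median log2 fold changes over the lists were -0.0037, -0.18 and -0.069. Of the lists, 2 genes rose in all 3 lines, PIK3CB and PIK3R3, both of PI3-kinase. In all 3 lines ADAM9, AKT1, EGF, PLCG1, RHBDL2, RNF41 and TYRO3 fell.

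Of the 7 family members outside the 9, EGF, the founding ligand, fell from 53.5 ± 0.429 to 32.2 ± 2.45 CPM in C4-2B, by 0.73 ± 0.071 on the log2 scale (adjusted p = 5.27e-09). In 22Rv1 EGF fell by 2.42 ± 0.41 from a level of only 2.15 CPM, and the receptor gene ERBB4 fell by 0.78. NRG2 and NRG3 fell there by 4.31 ± 0.77 and 2.00 ± 0.41, from only 0.792 and 1.45 CPM. NRG2 read 0.0811, 0 and 0 CPM in the knockdown libraries. The libraries with 0 reads allow levels of up to 0.184 and 0.177 CPM, counting error only, so the size of the NRG2 fall is uncertain. The part of this line's shift with level in these falls was not tested. In DU145 BTC, the betacellulin gene, rose from 5.35 ± 0.640 to 8.46 ± 0.531 CPM (adjusted p = 1.01e-05), NRG2 rose by 0.29 and EGF fell by 0.91 from 0.883 CPM. EGF in C4-2B was the 1 ligand gene of these lists or of the 9 above 10 CPM in a line other than DU145.

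Genes that cut or carry the ligands moved in each line. RHBDL2, a rhomboid protease that can release EGF, fell by 0.84 ± 0.24 in C4-2B, 1.71 ± 0.25 in 22Rv1 and 2.53 ± 0.32 in DU145, from levels of at most 4.57 CPM. ADAM17, the main sheddase of TGF-alpha and amphiregulin, rose in C4-2B from 24.4 ± 1.36 to 35.5 ± 0.843 CPM (adjusted p = 5.33e-06), fell by 0.46 in 22Rv1 and rose by 0.40 in DU145. ADAM10 rose by 0.18 in C4-2B and fell by 0.16 in 22Rv1 and 0.39 in DU145. Over the list of 11, 4 rose and 3 fell of 10 tested in C4-2B, 2 rose and 7 fell of 11 in 22Rv1, and 4 rose and 7 fell of 11 in DU145, where BACE1, which cleaves neuregulin-1, fell by 1.15 ± 0.061.

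Of the 17 genes of receptor turnover and inhibition, 3 rose and 5 fell in C4-2B, 3 rose and 7 fell in 22Rv1, and 5 rose and 8 fell in DU145. CBL, the ubiquitin ligase that marks EGFR for degradation, fell in DU145 from 132 ± 9.78 to 63.5 ± 3.17 CPM, by 1.06 ± 0.056 (adjusted p = 3.54e-14). RNF41, which targets ERBB3, fell by 0.41 in C4-2B, 0.18 in 22Rv1 and 0.22 in DU145. LRIG1, another brake on the receptors, fell by 0.28 in C4-2B and 0.95 in 22Rv1 and rose by 0.46 in DU145. PTPRJ fell by 1.40 ± 0.069 and PTPN2 rose by 1.19 ± 0.089 in 22Rv1, both being phosphatases that act on EGFR. Of the 13 receptor adaptors none rose and 4 fell in C4-2B, 2 rose and 8 fell in 22Rv1, among them GAB1 (0.81 ± 0.12) and SOS1 (0.65 ± 0.060), and 3 rose and 2 fell in DU145.

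In the RAS and ERK cascade 4 of 13 genes rose and 4 fell in C4-2B, 8 rose and 1 fell in 22Rv1, and 2 rose and 5 fell in DU145. In 22Rv1 69.2% of this list was called, beside 67.8% of all genes, of which 33.5% were higher and 34.3% lower. The 1 fall in 22Rv1 was the scaffold gene KSR1, by 1.55 ± 0.13, while HRAS rose by 0.89 ± 0.067. In DU145 MAP2K1, which encodes MEK1, fell by 0.72 ± 0.052 and BRAF by 0.66 ± 0.057. In the PI3K and AKT cascade 3 of 10 rose and 4 fell in C4-2B, 4 of 11 rose and 4 fell in 22Rv1, and 4 of 11 rose and 6 fell in DU145. PIK3R3, a regulatory subunit, rose by 0.53 ± 0.049, 1.38 ± 0.055 and 1.23 ± 0.091 in C4-2B, 22Rv1 and DU145.

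Of 19 genes known to respond to ERK, 5 rose, 1 fell and 8 did not pass of 14 tested in C4-2B, 3 rose and 12 fell in 22Rv1, and 6 rose and 7 fell in DU145. The list was not compared between lines by a test. DUSP4, an ERK phosphatase gene, rose in C4-2B from 15.9 ± 1.35 to 92.8 ± 5.43 CPM, by 2.55 ± 0.073 (adjusted p = 3.56e-19). In DU145 it fell from 8.46 ± 1.23 to 0.831 ± 0.149 CPM, by 3.36 ± 0.16 (adjusted p = 6.96e-16), and the effects of these lines differed by 5.91 ± 0.16 (adjusted p = 2.38e-24). SPRED3, an inhibitor of the same cascade, also rose in C4-2B (1.10 ± 0.33) and fell in DU145 (2.25 ± 0.086). In 22Rv1 DUSP5 fell by 2.54 ± 0.19 and EPHA4 by 1.52 ± 0.28, while ETV1 rose by 1.18 ± 0.11, from 7.53 to 16.9 CPM. DUSP6, SPRY2, SPRY4 and EGR1 fell there by 1.02, 0.43, 0.53 and 1.04. DUSP5 and EPHA4 read 9.14 and 2.71 CPM in the controls. The part of the line's shift with level in these falls was not tested.

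Of the receptor tyrosine kinases outside the family, 1 rose and 10 fell of 12 tested in 22Rv1, beside 33.5% and 34.3% of all genes there. KIT fell by 4.71 ± 0.31 from 5.60 CPM. KIT and ROR1 (6.84 CPM in the controls) are at levels where the median over all 22Rv1 genes was -0.33, and the part of that shift in their falls was not tested. In C4-2B 3 rose and 3 fell of 12, with IGF1R falling from 149 ± 2.61 to 57.6 ± 5.44 CPM (1.37 ± 0.056). In DU145 5 rose and 5 fell of 14, and MERTK rose by 1.10 ± 0.068 and FGFR3 by 1.36 ± 0.16. Markers also moved with knockdown in these libraries. The luminal sum stood at 4545 to 4678 CPM after knockdown in C4-2B, 1768 to 1805 in 22Rv1 and 110 to 124 in DU145. In C4-2B 4 luminal markers fell, and FOLH1 and FOXA1 rose. The 5 epithelial markers summed to 2488 to 2682 CPM in the DU145 controls and 1250.1 to 1388 after knockdown. Of these, 4 fell there, led by KRT8 from 1243 to 403 CPM, and EPCAM rose from 72.5 to 108 CPM. Their sum was 1533 to 1593 CPM in the C4-2B controls and 1662 to 1698 after knockdown. In 22Rv1 it was 2197 to 2320 CPM in the controls and 1848 to 1861 after knockdown. The blood list summed to 94.6 to 95.2 CPM in the DU145 controls and 28.6 to 31.1 after knockdown, nearly all CD68, with PTPRC at 0.224 CPM in the controls. In 22Rv1, where 5 of its 8 genes had an entry, it summed to 167 to 187 CPM in the controls and 267 to 268 CPM after knockdown. HBA2 led that sum, with HBB at 0 in the controls. The fibroblast and endothelial markers summed to at most 25.0 CPM in any library, mostly VWF in C4-2B. Of these 9 markers, 4 had an entry in C4-2B, 7 in 22Rv1 and 9 in DU145. The part of these marker changes in the members' values was not tested.

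**Figure D4:**
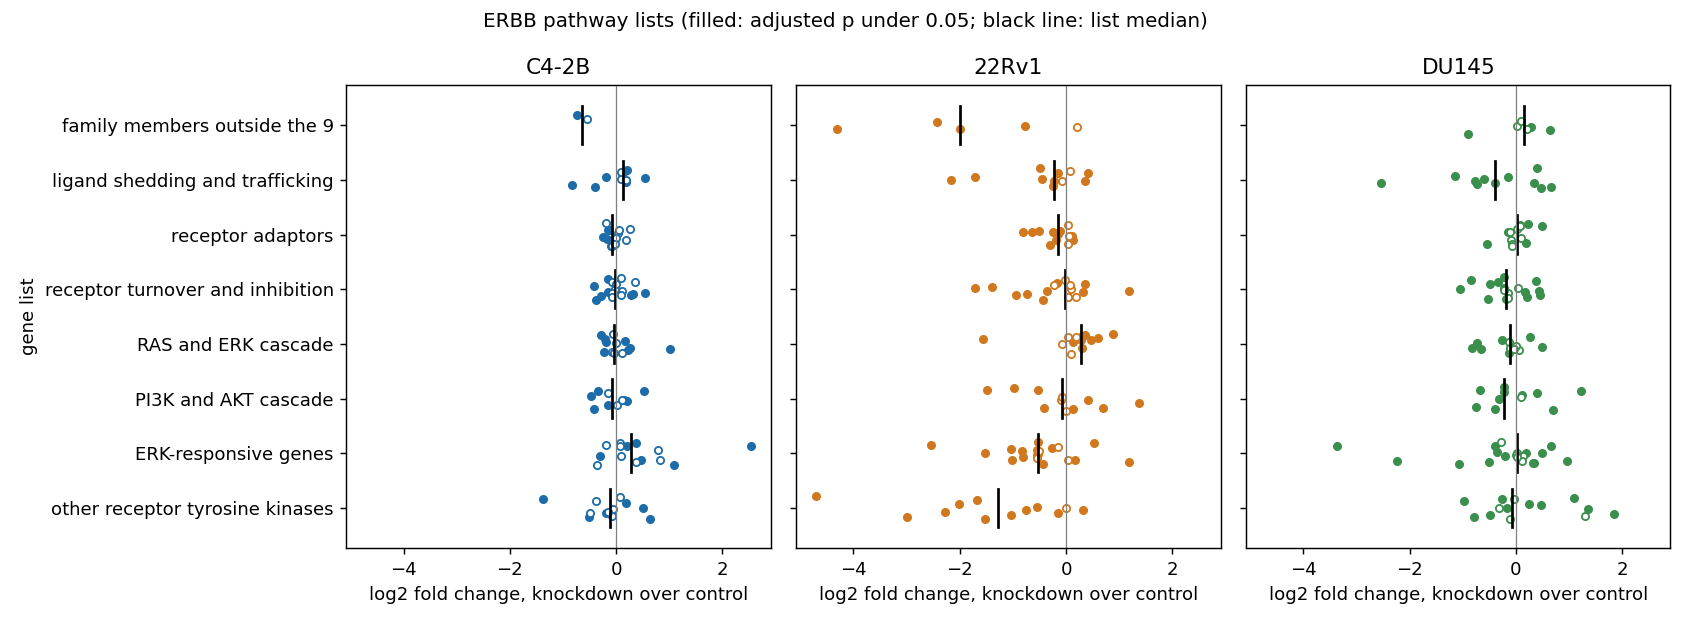
Log2 fold change of EMD knockdown over control for the genes tested from 8 pathway lists in each line, filled where the adjusted p is under 0.05, with a black line at each list's median. The 22Rv1 median of the other receptor tyrosine kinases lies at -1.28 and that of the ERK-responsive genes at -0.54, against 0.29 for the latter in C4-2B.

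The genes most like each member were sought by Pearson's correlation of log2 CPM over the 18 libraries, as a description, since line, batch and table set most of the variation. TGFA was closest to PML (r = 0.971) and ITGB4 (0.960), AREG to RSRC2 and BOLA2B (0.981 each) and then FOXN2 (0.980), and HBEGF to GRAMD1B (0.995). EGFR was closest to ANKRD52 and ZNF43 (0.995 each), ERBB2 to MAGED2 (0.994), ERBB3 to B4GALNT4 (0.998) and ERRFI1 to PSIP1 (0.985) and WNT3 (0.984).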

How the data were processed

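Each deposited table holds expected counts for genes, all whole. The submitters' processing notes name STAR, RSEM 1.3.1 and GRCh38; rounding and annotation release are not given in the sources used here. In DU145, 92 spike-ins and 30 second copies of pseudoautosomal genes were left out (0.0477% to 0.0512% of reads per library). The tables of C4-2B and 22Rv1 list no gene under 5 and 2 reads over its 6 libraries.

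Genes passing filterByExpr (minimum count 10, minimum total 15) were scaled by TMM and tested per line with edgeR 4.0.16 (robust quasi-likelihood F test, R 4.3.3), with Benjamini-Hochberg adjustment over all genes tested and a threshold of 0.05. The standard error is the log2 fold change divided by the root of F. Lines were compared in a fit of 18 libraries over the 18445 genes in all 3 tables. The pipeline was tested on simulated data. Where an upper bound is given for a library with 0 reads, it stands for 3 reads, and the fits use the counts as they are.

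Named genes are the 9 members, EMD, up to 3 genes per pathway list and line with the largest called change and arms apart, any marker needed, and up to 3 genes most correlated with each member; genes named outside this rule (ADAM10, the genes called alike in all lines, LRIG1, ERBB4, and DUSP6, SPRY2, SPRY4 and EGR1) were chosen after their values were seen, as were overlapping genes from GENCODE. Some genes that this rule names are not reported here. Members and lists were chosen with earlier results of these data known. Alternatives were DESeq2 1.42.0, limma 3.58.1 after cyclic loess, other scalings, no filter, a replicate block and leaving out each library.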

Additional observations from a re-analysis of the deposited data

Results flagged for a closer look

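A knockdown effect that differed between 2 lines past the threshold, by edgeR's test of the difference itself, was found 17 times among the members, once for AREG in C4-2B, where it failed the filter on its own and its value is not read as a difference. Between C4-2B and 22Rv1 the difference (first line minus second, log2) was 2.79 for TGFA, 1.42 for HBEGF, -0.41 for EGFR, 0.36 for ERBB3 and 1.56 for ERRFI1. Between C4-2B and DU145 it was 4.06 for TGFA, -2.58 for AREG, 0.45 for EGFR, 0.52 for ERBB2, 0.19 for ERBB3 and -0.40 for ERRFI1. Between 22Rv1 and DU145 it was 1.27 for TGFA, -2.0 for AREG, -1.19 for HBEGF, 0.86 for EGFR, 0.53 for ERBB2 and -1.96 for ERRFI1. The comparisons share libraries, so these values are not independent of each other. In all 3 pairs between 45.7% and 56.1% of all genes differed past the same threshold.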

How the results depend on the processing

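Of 935 values of single members under an alternative, 883 kept their direction and side of the threshold and 52 did not; those that lost or gained a call are given in the report or below. The count of DU145 members that changed went from 8 to 5 when all 18 libraries were fitted together, because EREG and NRG1 are not in that fit and EGFR was no longer called. The difference in ERBB2 effect between C4-2B and 22Rv1 turned from -0.016 to 0.15 after cyclic loess scaling (adjusted p = 0.0289 in limma), and the cause was not tested. Leaving out 1 library at a time, 3 to 4 members were called in C4-2B, 6 to 7 in 22Rv1 and 6 to 8 in DU145, and 35 to 45, 71 to 78 and 65 to 73 genes of the pathway lists. Over all genes, 5620 to 6258, 10661 to 11016 and 8213 to 9525 were called in the same fits. With library totals the median control level over all genes moved to 0.14 for C4-2B over DU145 and 0.20 for 22Rv1 over DU145. The effect of ERBB3 in 22Rv1 over DU145 did not pass at -0.17 but did with library totals (-0.24) and loess scaling (-0.29), without 22Rv1 control 2 (-0.20) and without DU145 knockdown 1 (-0.24). Depth limits AREG, which had 0 to 16 reads per library in C4-2B and 3 to 28 in 22Rv1.

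The deviations of same-numbered libraries correlated between -0.040 and 0.029 in C4-2B and 22Rv1 and at 0.13, 0.29 and 0.035 in DU145. With 3 libraries per arm, these values do not settle whether the replicate numbers mark pairs. With the replicate block, 3, 7 and 8 members were called in C4-2B, 22Rv1 and DU145, and 47, 78 and 75 genes of the pathway lists. In C4-2B 6623 genes in all were called with the block. The block added ERBB3 to the effects that differed between 22Rv1 and DU145 (adjusted p = 0.0283), 7 in place of 6, and changed no other member's call. In no line did every library correlate best with its own number.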
